A study of Mus musculus with 7 samples.

Results

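Stretches of DNA inside genes that carried the H3K27ac mark in all 3 of 3 tumour cell clones, away from any transcription start, are described here. H3K27ac is an acetylated lysine on histone H3 that is found at active promoters and enhancers, and ChIP-seq with an antibody against it gives peaks where the mark is enriched over a background of control reads. Peaks of the 3 clones on chromosomes 1 to 19 of GRCm38 were merged wherever they overlapped by at least 1 bp, which gave 56903 regions. A region was chosen by 3 criteria, namely that peaks of all 3 clones overlapped it, that it lay more than 5 kb from every annotated transcript start of any gene type, and that its midpoint lay in the body of a protein-coding gene. Of the 56903 regions, 15462 were overlapped by all 3 lists, 3860 of these were more than 5 kb from a start, and 2096 of these had their midpoint in a protein-coding gene. These 2096 shared intronic regions make up 3.68% of all merged regions, 13.6% of those found in every clone and 54.3% of those also more than 5 kb from a start.

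The clones were selected in soft agar from skin tumours of Cdkn2ab-/- mice, in which the Cdkn2a and Cdkn2b cell cycle inhibitor genes are deleted, on an FVB/129P2 backcross background, and all 3 carry this deletion without further treatment. They are labelled backcross 1, 2 and 3 and are called clones 1, 2 and 3. Each list stands for 1 clone, with 1 H3K27ac library each for clones 1 and 2 and 2 pooled libraries for clone 3, so every list gives 1 value per region and no error within a clone. IgG control libraries are labelled for clone 1, with 1, and clone 3, with 2, and the control behind the folds and backgrounds of clone 2 is not given in the sources used here. There is no second condition, and the ages of the mice were not used here.

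Introns of long genes often hold enhancers, which can act on the promoter of the gene they lie in or on that of another gene. Enhancers carry H3K27ac on the nucleosomes that flank a stretch of open DNA where transcription factors bind. AP-1, a dimer of Fos and Jun proteins, is among the factors bound most widely at enhancers of epithelial and mesenchymal cells, often beside TEAD factors, the DNA-binding partners of YAP and TAZ, and RUNX factors. Whether the regions act as enhancers was not measured, and the mark alone does not name the gene that a region acts on.

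The sequence at the summit of the mark and the sequence around the AP-1 words are shown for the genes that the results turn on. Both strands were searched for the 7 letters TGANTCA, which read the same on either strand, and matches are in capitals. All stretches are from the plus strand of GRCm38. The regions of Syne1 and Ppard, 2 of the 10 with the best mean rank of fold, are shown over the 121 bases around the summit of the clone in which the region ranked best, and neither stretch holds the word.
Syne1, chr10:5289432-5289552: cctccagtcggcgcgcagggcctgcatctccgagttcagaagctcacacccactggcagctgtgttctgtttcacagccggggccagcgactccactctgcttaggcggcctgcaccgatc
Ppard, chr17:28259575-28259695: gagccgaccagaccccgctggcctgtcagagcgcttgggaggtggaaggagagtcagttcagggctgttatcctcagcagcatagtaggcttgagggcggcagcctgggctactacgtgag

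The next 10 stretches of 81 bases are each centred on an AP-1 word 200 to 400 bp from the summit, the distance at which the word was most frequent. They come from 9 genes with many or densely packed regions or a role in skin or in YAP signalling, and from Dlgap1, whose stretch holds 2 copies. In each case the best-ranked region of the gene with such a word was taken.
Foxp1, chr6:98949748-98949828: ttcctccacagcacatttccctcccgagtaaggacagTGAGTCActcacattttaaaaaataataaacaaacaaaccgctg
Cmip, chr8:117282750-117282830: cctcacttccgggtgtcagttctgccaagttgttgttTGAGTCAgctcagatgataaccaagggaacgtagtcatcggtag
Lpp, chr16:24491513-24491593: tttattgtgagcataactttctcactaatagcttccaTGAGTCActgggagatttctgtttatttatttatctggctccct
Fndc3b, chr3:27607955-27608035: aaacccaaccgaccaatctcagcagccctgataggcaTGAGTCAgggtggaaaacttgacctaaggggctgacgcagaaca
Nsmce2, chr15:59600131-59600211: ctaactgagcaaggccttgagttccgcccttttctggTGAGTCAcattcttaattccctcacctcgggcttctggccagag
Actn1, chr12:80220329-80220409: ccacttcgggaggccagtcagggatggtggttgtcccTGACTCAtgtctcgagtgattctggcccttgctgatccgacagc
Myh9, chr15:77823839-77823919: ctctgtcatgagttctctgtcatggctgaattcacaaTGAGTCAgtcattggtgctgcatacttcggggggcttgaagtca
Tead1, chr7:112720790-112720870: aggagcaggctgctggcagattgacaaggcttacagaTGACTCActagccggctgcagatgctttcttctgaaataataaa
Trp63, chr16:25786659-25786739: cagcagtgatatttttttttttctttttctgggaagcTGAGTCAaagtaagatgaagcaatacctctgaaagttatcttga
Dlgap1, chr17:70746906-70746986: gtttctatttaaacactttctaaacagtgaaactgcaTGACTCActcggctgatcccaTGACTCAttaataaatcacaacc

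AP-1 words were more frequent beside the summits than at them. Within 100 bp of the summit 183 of the 2096 regions (8.73%) held the word, against 5.02% of 3487 unmarked flanking windows of the same length centred 2 kb outside the regions. At 200 to 400 bp from the summit, 792 regions (37.8%) held it on one side or the other, against 20.8% of all 56903 merged regions over the same distance. The shares of 8.73% and 37.8% come from unlike lengths, 201 bases at the summit and 200 bases on each side beyond it. Matches rose from 9.26 per 100 regions in the nearest 100 bp of distance to 23.0 at 200 to 300 bp and 22.9 at 300 to 400 bp, and fell to 7.66 at 800 to 1000 bp. The frequency at 200 to 400 bp was therefore 3.00 times that at 800 to 1000 bp, while that at the summit was 1.21 times it. The summit used was that of the clone in which the region ranked best, and the distance was chosen after the profile had been seen.

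**Figure D1:**
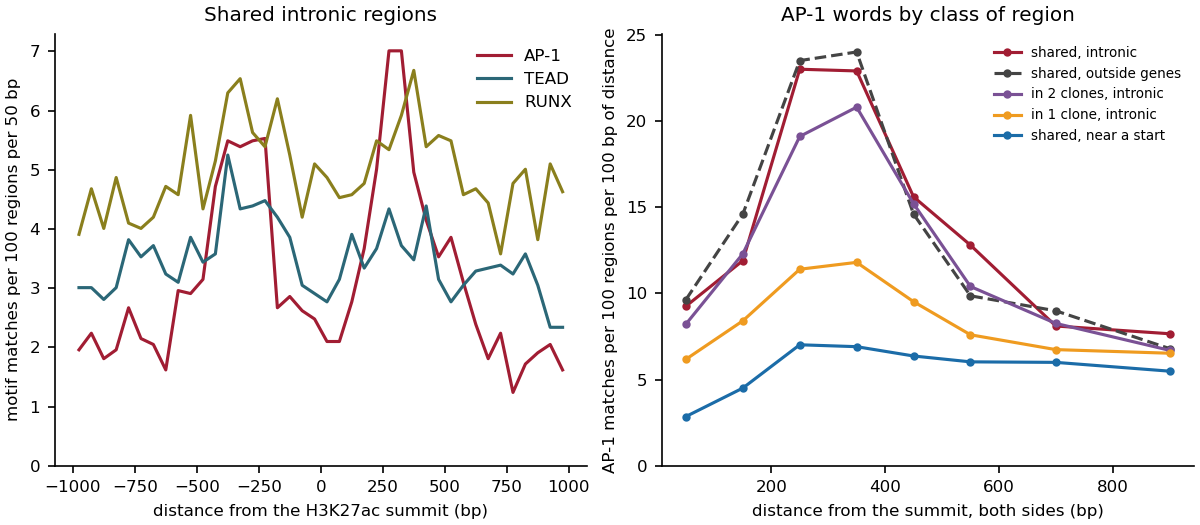
Left, matches to the AP-1, TEAD and RUNX words per 100 shared intronic regions in 50 bp steps along the distance from the H3K27ac summit in bp. Right, AP-1 matches per 100 regions and 100 bp of distance from the summit for 5 classes of region. The AP-1 curve of the shared intronic regions has a maximum on each side of the summit, reaching 7.01 matches per 100 regions and 50 bp on one side, and lies close to that of the shared regions outside genes.

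The same shape was found with the summits of each clone. With the summits of clone 1 the share of regions with an AP-1 word at 200 to 400 bp was 40.4%, with those of clone 2 it was 32.5%, and with those of clone 3 it was 40.1%. Within 100 bp of the same summits, a shorter stretch of sequence, the shares were 5.44%, 9.73% and 7.82%. Clone 2 was therefore lowest at the flanking distance and highest at the summit. The ratio of the frequency at 200 to 400 bp to that at 800 to 1000 bp was 3.39, 2.34 and 3.53 in clones 1, 2 and 3. The position of a summit is uncertain, since those of clones 1 and 3 lay a median of 105 bp apart in the same region, those of clones 1 and 2 a median of 167 bp and those of clones 2 and 3 a median of 198 bp.

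All words of 7 letters, each counted together with its reverse complement, were also compared without a list of motifs. The distance was the one at which AP-1 words had been seen to be most frequent. A high place of TGACTCA was therefore favoured in advance and is no separate support. Of the 4013 words present in at least 2% of the windows from 200 to 400 bp on each side, TGACTCA stood at the top. It was found in 661 of 4192 windows (15.8%) and in 2.78% of the flanking windows, a ratio of 5.64 (0.5 was added to each flank count; the windows are 200 and 201 bases long). The next 4 words, all shared at least 5 letters with it, and the first of them, ATGAGTC, had a ratio of 3.48. GCATTCC, which holds the TEAD word GGAATG on the other strand, stood at 2.25, and ACCACAA, which holds the RUNX word TGTGGT on the other strand, stood at 2.07. At the summits themselves the top of the list was different, with CG-containing words in front, led by CAGCCGC at 2.05% of regions against 0.373% of flanking windows.

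The other words fixed with the list showed weaker profiles around the summits. TEAD words (GGAATG on either strand) were found at 200 to 400 bp in 28.1% of the regions, against 22.2% of all 56903 merged regions, and were 1.46 times as frequent there as at 800 to 1000 bp. RUNX words (TGTGGT on either strand) were found in 36.3%, against 29.0% of all merged regions, and were 1.31 times as frequent. TCF/LEF words (ATCAAAG), the sites through which canonical Wnt signals act, were found in 6.39%, against 5.22%, and their frequency was 1.01 times that farther out. ETS words (CCGGAA) were found in 5.10%, under the 9.70% of all merged regions, and were 1.38 times as frequent as farther out, against 2.06 times in all merged regions. Within 100 bp of the summit E-box words (CAGCTG) were found in 16.4% of regions and 8.83% of flanks. For KLF/SP words (GGGCGG) the shares were 6.20% and 2.98%. For NFI words, which are TGGC and GCCA with 5 letters between, they were 1.00% and 0.315%. GATA words (AGATAA) were rarer at the summits than in the flanks, at 7.06% and 10.4%, as were SOX words (ACAATG), at 9.06% and 10.6%. The spaced core of p53 and p63 sites, which is a pair of CNNG with 5 letters between, was found in 55.2% of summit windows, 40.3% of flanks and 82.8% of the windows of shared regions near starts, and is too loose to mark a site. NRF2/MAF words, which are TGAC and GC with 3 letters between and can overlap an AP-1 word, were found in 9.78% and 6.28%. In intronic regions of 2 clones the E-box, KLF/SP, NFI and NRF2/MAF shares were 15.6%, 5.17%, 1.06% and 8.67%. Intronic regions of a single clone had 18.7%, 6.45%, 0.962% and 9.97%, so these shares were not particular to the shared regions. They differed by clone, with E-box words in 10.8%, 22.1% and 7.84% of the regions of clones 1, 2 and 3 alone. Median GC content was 52.2% at the summits and 45.3% in the flanks, which moves with the GC-rich words, and its part in their shares was not tested.

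The sequence at the summits was mostly unique. Lower-case letters of the reference, which mark repeats, made up 12.0% of the bases within 100 bp of the summits and 25.6% in the flanking windows. Windows that were more than 50% repeat made up 5.39% of the shared intronic regions and 18.6% of the flanks.

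Among the regions themselves the AP-1 share at 200 to 400 bp varied little. With the regions split by mean rank of fold into 4 groups of 524, it was 39.7% in the strongest, 37.0% and 36.8% in the middle groups and 37.6% in the weakest. Regions 5 to 10 kb from a start held the word in 39.7% of cases and the 181 regions beyond 50 kb in 37.6%. Regions in the first intron of a transcript held it in 37.4% and the others in 38.2%. Where the highest summits of the 3 clones lay within 250 bp of each other the share was 41.3% of 908 regions, and 35.1% of the 1188 others.

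Shared regions outside protein-coding genes had almost the same AP-1 share, 38.2% of 1764. Shared regions within 5 kb of a start held the word at that distance in 12.3% of 11602, and their summit windows had a median GC content of 66.2%. Intronic regions found in 2 clones held it in 32.8% of 2457 and those found in a single clone in 20.2% of 11326. The last value differed between the lists. It was 15.8% of the 8400 regions of clone 2 alone, 27.8% of the 1051 of clone 1 alone and 35.9% of the 1875 of clone 3 alone, so the share for clone 3 lay near that of the shared regions. The regions of clone 2 alone had a median GC content of 56.7% at the summit, against 46.3% and 43.8% for those of clones 1 and 3. Regions of a class are not independent samples and no test was made between classes.

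The AP-1 words were spread over the genes that hold several regions. Over all 2096 regions the share was 37.8%. The genes named here were chosen after their counts were seen, hold 4 to 13 regions each, and were not tested against that share. Nsmce2, which encodes a SUMO ligase of the SMC5/6 complex, held the word 200 to 400 bp from the summit in 7 of its 8 regions. Fndc3b held it in 6 of 8, Rad51b, a gene of homologous recombination, in 5 of 10, and Lpp and Rasa3 in 5 of 9 each. In Zfhx3 and Rapgef2 it was found in 1 of 8 regions, and in the dense gene Tnfrsf1b, a TNF receptor, in 0 of 4. Foxp1 had it in 3 of 13 and Actn1 in 3 of 7.

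The 2096 regions lay in 1162 host genes, which are 8.60% of the 13508 protein-coding genes with any sequence more than 5 kb from a start. A single region was found in 720 hosts (62.0%), 2 in 206 and 3 or more in 236 (20.3%), and these 236 genes held 998 of the regions (47.6%). The midpoint of 56 regions lay in 2 or more genes. Hosts were long genes, with a median of 104 kb against 33.4 kb over the genes that could host a region, and the length more than 5 kb from a start was 72.1 kb against 15.9 kb. The share of genes with a region rose with that length, from 2.01% of genes with up to 20 kb of it to 28.2% of those with 100 to 200 kb, and was 27.4% of those with more. Over the 670 Mb of such sequence there were 3.13 regions per Mb.

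**Figure D2:**
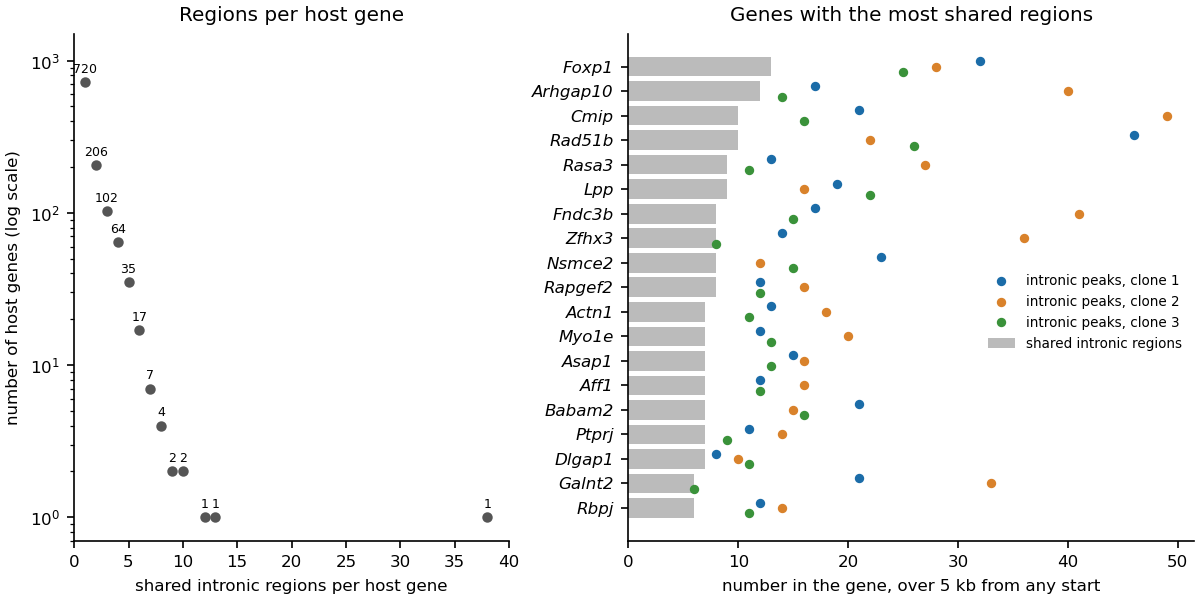
Left, the number of host genes (log scale) that hold each number of shared intronic regions, the point at 38 being the readthrough model Gm20388. Right, the 19 other genes with the most shared regions (grey bars), with the number of peaks of each clone in the gene more than 5 kb from any start (points); clone 2 has the most peaks in 13 of the 19 genes.

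The gene with the most regions was an annotation model and not a single gene. Gm20388, a readthrough transcript annotated over 4435 kb of chromosome 8, held 38 regions, of which 25 had no other host. In all 12 hosts consisted of readthrough transcripts, and 26 regions had no other host. Without them there were 2070 regions in 1150 genes.

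Foxp1, a forkhead repressor of transcription, followed with 13 regions over its 597 kb. It had 32, 28 and 25 peaks more than 5 kb from a start in clones 1, 2 and 3, which put it at rank 3, 27 and 3 of all genes in the respective lists. The fold enrichment of its 13 regions spanned 4.83 to 20.0, 2.52 to 23.2 and 3.71 to 9.88 in the lists of clones 1, 2 and 3. The region at chr6:99173945-99176376 in intron 4 reached a fold of 13.0, 17.3 and 9.88 on 61, 83 and 78 reads, with its 3 summits within 103 bp. At chr6:98948514-98950764 in intron 13, from which the AP-1 stretch above was taken, the folds were 16.3, 23.2 and 3.87, and the summits spread over 1039 bp. The 3 regions nearest the 5′ end also lie in an overlapping gene model, Gm20696.

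Arhgap10, a GTPase-activating protein, held 12 regions and 17, 40 and 14 peaks in clones 1, 2 and 3. Cmip and Rad51b held 10 each. Cmip had 49 peaks in clone 2 against 21 and 16 in clones 1 and 3, while Rad51b had 46 in clone 1 against 22 and 26 in clones 2 and 3. In Cmip the largest region spanned 5801 bp of intron 1 at chr8:117279450-117285250, with a fold of 20.8, 27.4 and 15.8 on 157, 254 and 168 reads. The region at chr8:117326729-117330293 reached 26.8, 21.2 and 5.41, and the other 8 had folds of 4.51 to 12.0 in clone 1. The number of regions in these genes depends on the lists asked for, since Cmip held 16 without clone 3 and Rad51b 21 without clone 2. Lpp, a zyxin-family protein of focal adhesions, held 9 regions over 599 kb, 4 of which lay within 10 kb of each other in intron 3. Fndc3b held 8, with the strongest at chr3:27606273-27609184 at 28.9, 51.7 and 7.27. Rasa3, a GTPase-activating protein of Ras and Rap, held 9 in 111 kb.

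Seen per length of eligible sequence, the densest genes with at least 4 regions and 20 kb were Tnfrsf1b with 14.1 regions per 100 kb, Actn1 with 14.0 and Myh9 with 12.1. Bcl2l1, an inhibitor of apoptosis, had 11.7, Rasa3 11.4, the MAP kinase phosphatase gene Dusp10 10.6, Vmp1 10.2 and Pacsin2 9.66. These genes rest on 4 to 7 regions each, apart from Rasa3 with 9, and with peaks of −log10 q of at least 5 Tnfrsf1b held 0, Actn1 and Myh9 2 each. Tnfrsf1b also held 0 where summits of all 3 clones had to lie within 250 bp, and Myh9 held 1 beyond 10 kb from a start. Actn1 and Myh9 encode alpha-actinin and the heavy chain of non-muscle myosin, which bind or move actin filaments. In Actn1 all 7 regions lay at least 5.93 kb from a start, 6 of them in intron 1. The fold of the region at chr12:80228267-80231981 was 10.2, 25.4 and 4.18 on 46, 101 and 51 reads. The 7 regions had folds of 3.58 to 10.8 in clone 1, 5.94 to 25.4 in clone 2 and 2.85 to 5.50 in clone 3, so all 7 lay under the median of the shared intronic regions in clone 3, which was 5.74. On chromosome 15 between 67 and 87 Mb, the interval that the study followed by linkage, the hosts with the most regions were Myh9 with 5, Mrtfa, a cofactor of serum response factor, with 4 and Pacsin2 with 4. Their order changed with the lists asked for, since without clone 1 Mrtfa and Pacsin2 held 7 each and Myh9 5, and without clone 2 Mrtfa held 9 and Myh9 6.

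**Figure D3:**
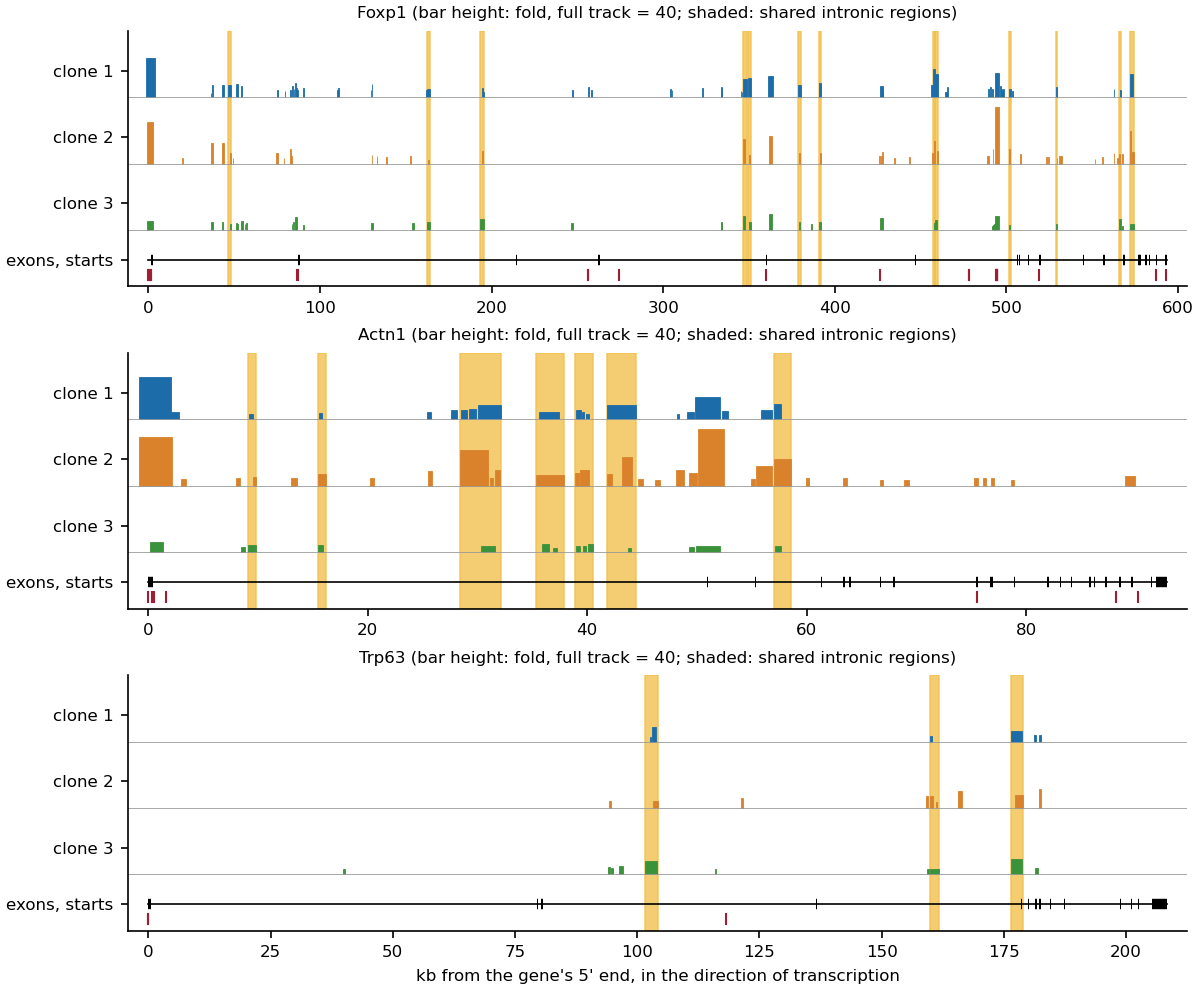
Peaks of clones 1, 2 and 3 over Foxp1, Actn1 and Trp63, along the distance in kb from the 5′ end of the gene. Bar height is fold enrichment (cut at 40), shading marks the 13, 7 and 3 shared intronic regions, black boxes are exons of the longest transcript and red ticks the transcript starts of the gene itself (starts of overlapping genes are not drawn). Many peaks of a clone lie outside the shading, because another clone has none there or because a start is near.

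The lists of host genes grouped by function differed in how many regions they held. Genes of the YAP and TEAD list, which holds genes linked to Hippo signalling, had 22.8 regions per Mb against 3.13 over all genes. Of the 17 that could host a region 10 did so, while Yap1 itself held 0. Tns3 held 6, Vgll4, a TEAD cofactor, 5, Wwc2 4, and Wwtr1, which encodes TAZ, 3. Tead1 held 3, and the region at its AP-1 stretch reached 17.4, 58.7 and 9.61. Genes of the actin cytoskeleton and focal adhesions had 17.4 per Mb, with 25 of 40 genes and 90 regions. Besides Lpp, Actn1, Myh9 and Tns3, which stands in both lists, Myo1e held 7, and Dst, Palld, Ablim1 and Bcar3 held 5 each. Genes of the TGF-beta and BMP pathways had 13.3 per Mb in 10 of 27 genes, with 6 in Smad3, 5 in Tgfbr3 and 4 each in Smurf1 and Ltbp1. Over all genes that could host a region 8.60% did so, but these 3 lists hold longer genes. Their median eligible length was 54.8 kb for YAP and TEAD, 118 kb for actin and 63.2 kb for TGF-beta, against 15.9 kb over all. Genes with a promoter peak in all 3 clones had 5.63 regions per Mb over all lists and other genes, and 13.1% of the 7120 such genes that could host a region did so. Over genes with such a peak the values were 22.8 for YAP and TEAD, 19.3 for actin and focal adhesions and 16.7 for TGF-beta and BMP. The list names are those of the genes' known roles, the lists were chosen with earlier results of these data known, and no test of the lists was made.

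**Figure D4:**
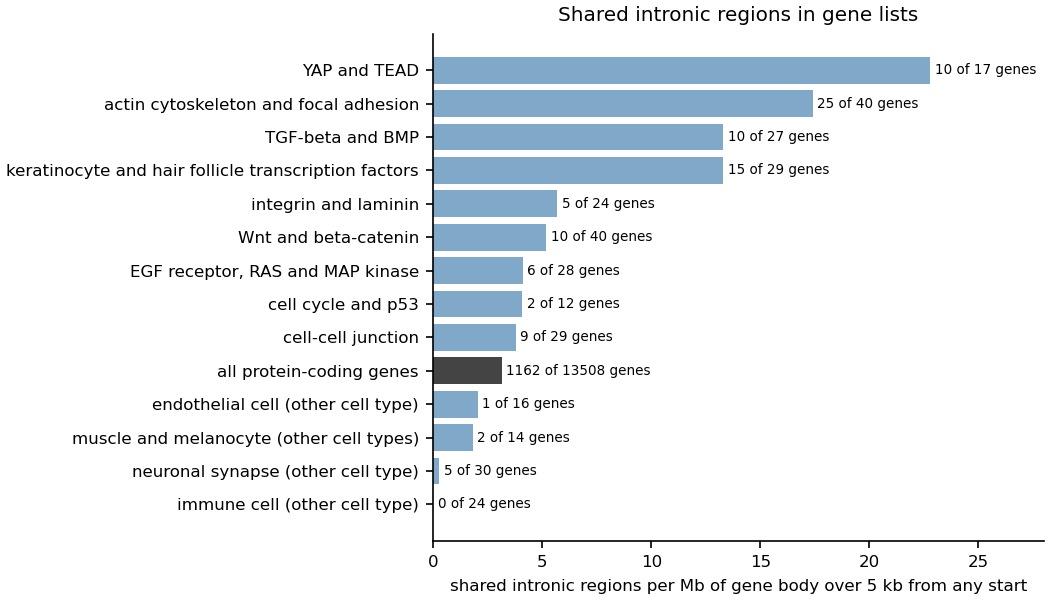
Shared intronic regions per Mb of gene body more than 5 kb from any start, for 13 gene lists (blue) and for all protein-coding genes (dark), with the number of genes that hold at least 1 region beside each bar. The YAP and TEAD list is at the top with 22.8 per Mb and the immune list at 0.

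Transcription factors of keratinocytes and hair follicles had 13.3 per Mb in 15 of 29 genes. Nfix, Runx1, Cux1 and Runx2 held 4 regions each, and Tead1 and Trp63 held 3. The strongest in Runx1, which acts in hair follicle stem cells, lay at chr16:92619817-92623412 with a fold of 29.7, 47.4 and 11.6 on 115, 219 and 110 reads. Wnt and beta-catenin genes had 5.18 per Mb in 10 of 40 genes, with at most 2 regions in a gene, among them the receptor Lrp5, Ror2 and the repressor Tcf7l1. Integrin and laminin genes had 5.69 per Mb in 5 of 24, with 4 regions in Hspg2, which encodes perlecan. EGF receptor, RAS and MAP kinase genes had 4.09 per Mb in 6 of 28, led by the ligand Nrg1 with 5. Cell-cell junction genes had 3.77 per Mb in 9 of 29, led by Cdh3, which encodes P-cadherin, with 3. Over genes with a promoter peak in all clones, the transcription factors had 14.7 per Mb and integrin and laminin genes 8.09, while Wnt genes had 6.74, EGF receptor genes 6.11, junction genes 4.13 and cell cycle genes 4.10, against 5.63 for all such genes. Cell cycle and p53 genes had 4.08 per Mb in 2 of 12, with 1 region each in Cdk6 and Ccnd3. In the densest list there were 59.0, 131 and 47.2 peaks per Mb in clones 1, 2 and 3, against 9.09, 19.8 and 9.15 over all genes. These peaks include those that make up the shared regions, so they are no separate support.

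Lists of other cell types had a lower density per Mb than all genes together, although the share of their genes with a region was not lower throughout. Immune genes had 0 regions in the 24 that could host one. Neuronal synapse genes, although they are long and offered 30.2 Mb, had 0.265 regions per Mb in 5 of 30 genes (16.7%, against 8.60% of all genes that could host a region), with 3 in the potassium channel gene Kcnma1. Endothelial genes had 2.04 per Mb, both regions lying in Vwf, and muscle and melanocyte genes 1.82 per Mb in 2 of 14 (14.3%). Few genes of these 4 lists had a promoter peak in all 3 clones, 5.56 to 14.8% of each list against 47.9% of all protein-coding genes, and the part of this in the low densities was not tested. Over genes with such a peak, muscle and melanocyte genes had 5.61 per Mb on 2 genes, near the 5.63 of all such genes, and neuronal genes 1.40 on 3 genes.

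Markers of cell types were checked by H3K27ac within 1 kb of a start. Of 6 basal keratinocyte markers, Itga6 and Cdh3 had a promoter peak in all 3 clones, Krt14 in 1 and Krt5, Trp63 and Cdh1 in none. Sox9 and Krt10 had one in all 3, while Lef1, Lgr5 and Ivl had none. Twist1, a marker of mesenchymal cells, had one in all 3 clones, Col1a1, Col1a2 and Pdgfra in clones 1 and 2 and Col3a1 in clone 3. The endothelial markers Pecam1, Cdh5 and Kdr, the muscle markers Myod1, Des and Myh3, the leukocyte markers Ptprc and Cd3e, the pigment genes Tyr and Dct and the neuronal genes Syt1 and Snap25 had none, while Cd14 and Mitf had one in all 3. Krt15, Krt13 and Tubb3 had one in clone 2 alone. The lists therefore hold marks of both epithelial and mesenchymal genes, and lack the mark at the promoters of several defining keratinocyte genes. Their part in the counts of the gene lists was not tested.

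Of the keratinocyte markers, 3 held shared intronic regions. Trp63, which encodes the p63 factor of basal keratinocytes, held 3 regions although no clone had a peak within 1 kb of its starts. They lay at chr16:25785419-25787935 in intron 3, with a fold of 10.2, 4.99 and 9.76 on 38, 18 and 86 reads, at chr16:25843618-25845457 in intron 4, with 4.17, 8.27 and 3.84, and at chr16:25860231-25862787 in intron 4, with 7.77, 9.50 and 10.8. Cdh1, which encodes E-cadherin, held 2 in intron 2 and likewise had no promoter peak in any clone. The stronger, at chr8:106618923-106620923, reached 15.6, 42.4 and 8.19 on 79, 221 and 82 reads. Cdh3, 3 of whose regions lay in intron 2, had promoter peaks in every clone.

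Most hosts carried the mark at their own promoter. A peak within 1 kb of a start was present in all 3 clones for 931 hosts (80.1%), against 50.1% of the 12346 genes that could have held a region and did not. The difference was present in every class of length, from 72.8% against 50.9% in genes with up to 20 kb of eligible sequence to 77.5% against 25.6% in those with more than 200 kb. Promoter peaks of these genes were not used in choosing the regions, but both come from the same lists. In 114 hosts (9.81%) no clone had a promoter peak. Of these, the genes with 3 or more regions were Dlgap1 with 7, Cubn, Kcnip1 and Tprg with 4, and Aff3, Trp63, Atp8b4, 4930486L24Rik, Akap6 and Lrmda with 3. Dlgap1 encodes a scaffold protein of synapses, and the highest folds among its regions were 25.4, 32.8 and 11.2 in clones 1, 2 and 3. Tprg lies beside Trp63 on chromosome 16, with highest folds of 17.7, 19.5 and 11.1.

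Within the genes the regions lay mostly in introns and towards the 5′ end. The midpoint was in an intron in 2023 regions (96.5%), in a coding exon in 28 and in an untranslated or non-coding exon in 45, against 5.31% of the eligible bases in exons. The first intron of any transcript held 1089 regions (52.0%) and 34.2% of the eligible bases. The part of the gene on the 5′ side of its midpoint held 55.6% of the regions and 48.1% of the eligible bases. The distance to the nearest start had a median of 14.6 kb with quartiles of 8.70 and 26.3 kb, 181 regions (8.64%) lay beyond 50 kb and the farthest at 465 kb. Regions of the same gene were often neighbours, with a median gap of 14.2 kb over 945 gaps. Just inside the limit of the rule, at 5 to 6 kb, there were 143 regions with a median width of 1329 bp and median folds of 8.05, 13.0 and 5.41, and just outside, at 4 to 5 kb, 187 with 1484 bp and 7.49, 12.2 and 5.16.

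The fold enrichment of a shared intronic region is the value at its best summit in each list, and belongs to the measurements that chose the regions, so it is given as a description. Its median was 7.91 in clone 1 (quartiles 5.80 and 11.6), 10.8 in clone 2 (6.85 and 17.4) and 5.74 in clone 3 (4.49 and 7.86). The median numbers of ChIP reads behind them were 38, 54 and 57. Relative to its own list the median region stood at percentile 51.3, 66.2 and 55.0. Shared regions near starts had 16.6, 38.1 and 7.73 and stood at percentile 77.6, 87.6 and 73.4, while shared regions outside genes had 8.25, 11.8 and 5.86. Intronic regions of a single clone had 5.14, 5.42 and 4.28 in clones 1, 2 and 3. The lists reach down to 13, 12 and 25 reads, so a region missing from a list may carry the mark below that level, and a weak region is less likely to be listed 3 times. Asking for clones 1 and 2 alone, without clone 3, gave 3162 regions in place of 2096.

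**Figure D5:**
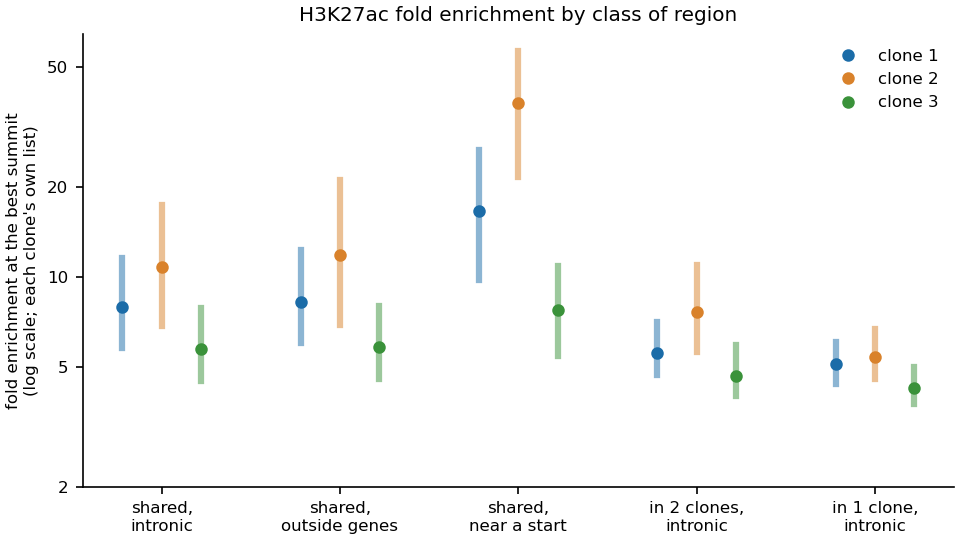
Fold enrichment at the best summit (log scale) in the list of each clone for 5 classes of region, as the median (points) and the quartiles (bars). The shared intronic regions, with medians of 7.91, 10.8 and 5.74, lie close to shared regions outside genes and below shared regions near starts in all 3 clones.

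In width the shared intronic regions had a median of 1539 bp (quartiles 1013 and 2185, range 320 to 9298). The median was 1403 bp for shared regions outside genes, 1665 bp near starts, 741 bp for intronic regions of 2 clones and 372 bp for those of 1 clone. A merged region is as wide as the union of its peaks, so width grows with the number of lists. In 1070 regions (51.0%) each list had a single peak.

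Of the 10 regions with the best mean rank over the 3 lists, 9 lay in Syne1, Disc1, Dnm1, Ppard, Ralgds, Gm7247, Psd3, Btd and 4930486L24Rik. In Syne1, which encodes the nuclear envelope protein nesprin-1, the region at chr10:5287257-5290649 in intron 55 of 145 had a fold of 31.1, 74.9 and 17.3 on 142, 351 and 165 reads. It lay 66.5 kb from any start, and the 3 summits fell within 55 bp. Disc1 at chr8:125252994-125255763 had 38.3, 71.8 and 13.9. Ppard, a nuclear receptor of fatty acids, had 37.0, 48.7 and 14.6 over the 6264 bp of chr17:28255448-28261711. Ralgds, an exchange factor downstream of Ras, had 40.4 and 78.6 in clones 1 and 2 but 9.28 in clone 3. The 10 were chosen by fold and differ from the rest in it by construction.

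The clones ordered the regions only loosely. Across the 2096 regions Spearman's rank correlation of fold was 0.348 between clones 1 and 2, 0.420 between clones 1 and 3 and 0.165 between clones 2 and 3. These are correlations over regions, which are not replicates, and the local backgrounds of clones 1 and 2 were themselves correlated (rank correlation 0.567, against 0.177 and 0.153 for the pairs with clone 3), the control of clone 2 being unknown. Its part in the correlation of fold between clones 1 and 2 was not tested. All regions were chosen for a peak in every list, and the shares that unrelated orders would give were not computed for the next counts. In 135 regions (6.44%) the fold was above the upper quartile of these regions in all 3 lists and in 83 (3.96%) below the lower quartile in all 3, while 305 (14.6%) were above the upper quartile in one list and below the lower in another. Examples chosen for this spread were Scara5 on chromosome 14, with 10.5, 4.04 and 19.1 in clones 1, 2 and 3, and Arhgef10l on chromosome 4, with 13.7, 46.0 and 3.03. Slc39a11 had 27.8 in clone 1, 4.31 in clone 2 and 8.34 in clone 3. In Slc39a11 and Galnt2 the local background differed as well, at 1.12, 4.00 and 1.56 control reads for the former and 2.00, 0.972 and 7.00 for the latter. With 1 value per clone, a difference between clones cannot be told apart from the error of a library.

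Chromosome 8 held more regions per eligible Mb than any other, 199 or 5.45 per Mb, and 4.99 per Mb without the readthrough genes. Chromosomes 17 and 15 followed with 3.93 and 3.92, and chromosome 1 was lowest with 2.09. The control background at the regions had a median of 1.35, 1.42 and 2.65 on chromosome 8 and 1.35, 1.42 and 3.00 on chromosome 15, against 1.00, 1.00 and 2.00 on the 17 other chromosomes in clones 1, 2 and 3. The median ChIP reads were 44, 75 and 67 on chromosome 8, 44, 60 and 68.5 on chromosome 15 and 37, 52 and 55 on the others. Reads and background were thus both higher on chromosomes 8 and 15, and their part in the density was not tested. The paper reports a gain of the FVB/N copy of the latter chromosome in the cell lines it analysed. It also names both chromosomes, among others, as gained in some of the tumours. Copy number was not measured here, and the part of such gains in the reads, the background and the density was not tested.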

How the data were processed

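The samples were 4 H3K27ac ChIP-seq libraries of 3 clones and 3 IgG libraries, of clones 1 and 3 only, and the deposited files are 1 peak list per clone. According to the submitters' processing notes reads were aligned with Bowtie2 to GRCm38 and peaks called with MACS2 2.1.1. By the peak names, allele mapping bias was filtered out for clones 1 and 2, and the 2 libraries of clone 3 were merged by the authors. The deposited fold enrichment is the ratio (scaled ChIP reads over the summit + 1) to (local control reads + 1). In this ratio 1 ChIP read counts as 0.424, 0.428 and 0.308 control reads in clones 1, 2 and 3. The read numbers given above are whole ChIP reads before this scaling. The deposited −log10 p-value is that of that summit, and the deposited score is the −log10 q times 10.

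Clone and antibody were taken from the sample labels. Whole ChIP reads and the background in control reads were solved from fold and p, a calculation tested on simulated data, for at least 99.992% of the peaks of each list. Genes, transcript starts and readthrough tags came from GENCODE M21 and sequence from RefSeq's GRCm38.p6. Gene list density is regions per Mb of gene body more than 5 kb from a start. Python 3.11.15, pandas 2.3.3, scipy 1.17.1 and pysam 0.24.0 were used. With 1 condition and 1 list per clone there was no test between groups. Named genes were the 20 hosts with the most regions, the 8 densest and the 10 regions best in mean rank. To these came up to 4 hosts and up to 2 non-hosts per gene list, and 3 hosts of the chromosome 15 interval. Non-hosts of the lists other than Yap1 are given as counts. Genes named for AP-1, spread between clones or missing promoter peaks were chosen after their values were seen. The members, motifs and gene lists were chosen with earlier results of these data known. Alternatives changed the overlap, the peak threshold, the distance, the starts, the gene models, the summit and the clones. Of the 10 regions best in mean rank, 1 is not reported here.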

Additional observations from a re-analysis of the deposited data

Results flagged for a closer look

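The rule of choice was limited to chromosomes 1 to 19, and the lists also hold peaks on chromosome X. There, 10 shared regions met the other criteria, lying more than 5 kb from a start with the midpoint in a protein-coding gene. They lay in Mtm1, Zfp185, Kif4, Nhsl2, Col4a6, Chrdl1, Sh3kbp1, Ctps2 with 2, and Car5b. They enter none of the counts above.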

How the results depend on the processing

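Of 81 values recomputed for 6 results, 58 stayed within 1.5 times the count or within the 95% exact binomial interval of the share, and 23 moved. The number of regions was 1138 where any summits of the 3 clones, not only the highest of each, had to lie within 250 bp, 1205 with peaks of −log10 q of at least 5, and 2836 to 3162 without 1 of the clones, the highest without clone 3. Under the same settings the share of hosts with 3 or more regions was 11.2%, 12.4% and 22.5 to 27.7%, and with the same number of peaks per clone 17.8%. The number of hosts, 1162, was 787 and 805 under the first 2 settings, 808 beyond 10 kb and 1442 to 1466 without 1 of the clones. The share in a first intron was 48.8% beyond 10 kb, 36.8% when the longest transcript alone was used, and 50.3 to 51.7% without 1 clone. The share with an AP-1 word near the summit was 7.14% with the stricter peaks, 7.24% with equal peak numbers, 6.97 to 8.71% without 1 clone, 5.44% at the summits of clone 1 and 13.7% within 150 bp. At 200 to 400 bp it was 41.6% with close summits, 41.0% with the stricter peaks, 32.2 to 40.0% without 1 clone, 40.4%, 32.5% and 40.1% at the summits of clones 1, 2 and 3, and 30.5% for TGACTCA alone. The cause of these moves was not tested. The readthrough and flanking-distance settings were chosen after seeing the data. In the 27 named genes, 67 of 324 recomputed numbers of regions moved by over 1.5 times. Foxp1 held 6 to 18 regions and Actn1 2 to 8. Rad51b held 21 without clone 2, and Cmip and Galnt2 16 each without clone 3. No paired analysis was possible because no result comes from a test between groups. Depth limits the lists to sites of at least 13, 12 and 25 reads, and 1 list per clone gives no error for a region.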
